A study of Mus musculus with 12 samples.

Results

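Dorsal astrocytes were compared with dorsal non-astrocytes of the postnatal mouse spinal cord on 6 of the 12 arrays of the series, 3 arrays for each sort. The arrays were chosen by their labels of region and sort. The cords came from Aldh1l1-GFP transgenic mice kept on the Swiss-Webster background and taken at postnatal day 7, and all groups share this transgene, strain and age. Dorsal cord was dissociated with papain and sorted by flow cytometry on GFP, astrocytes being the positive cells and non-astrocytes the negative. The ventral astrocytes and ventral non-astrocytes, also 3 arrays each, were used only to ask whether the difference between the sorts was the same in ventral cord.

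The Aldh1l1 promoter drives GFP in astrocytes, so the positive sort holds the cells in which the transgene is active, and the negative sort is a mixture of all other dissociated cells. A label field names the GFP-positive sort for every sample, the GFP-negative ones included, and the groups here follow the title and the cell type label, which do not conflict. The labels call the replicates biological without saying that they came from separate animals, so the p-values measure the spread between these samples. In such bulk samples fewer cells of a type and less RNA per cell cannot be told apart.

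Astrocytes are glia that clear glutamate and GABA from synapses, buffer potassium and water, couple to each other through gap junctions and hold the glycogen of the nervous tissue. Early postnatal cord also contains oligodendrocyte precursors and the first myelinating oligodendrocytes, microglia, neurons, and the endothelial cells and pericytes of blood vessels. Astrocytes of dorsal and ventral cord descend from progenitors patterned along the dorsoventral axis, and they keep some of the homeodomain and zinc finger factors of their domain.

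Levels are given as log2 RMA signal of a probe set, listed for replicates 1, 2 and 3 in turn. Differences are the mean of astrocytes minus the mean of non-astrocytes on that log2 scale with their standard error (SE, n = 3 per group). A probe set was called at a Benjamini-Hochberg adjusted p below 0.05 in limma, over 28467 probe sets. A level shows only how bright that probe set was, so levels of different genes are not set against each other.

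The sorts differed broadly. Of 28467 probe sets, 6768 were called (23.8%), 3180 of them higher in dorsal astrocytes (11.2%) and 3588 lower (12.6%). The difference was at least 2-fold for 1040 of the higher and 806 of the lower probe sets, and at least 8-fold for 98 and 12. Of the variance among the 6 arrays, 75.9% lay along the first principal component. The median SD between replicates was 0.14 log2 units in astrocytes and 0.10 in non-astrocytes. With 3 arrays a group, precision is limited by their number. Array medians over the series lay between 6.57 and 6.62 after the joint normalization, which brings them together.

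**Figure D1:**
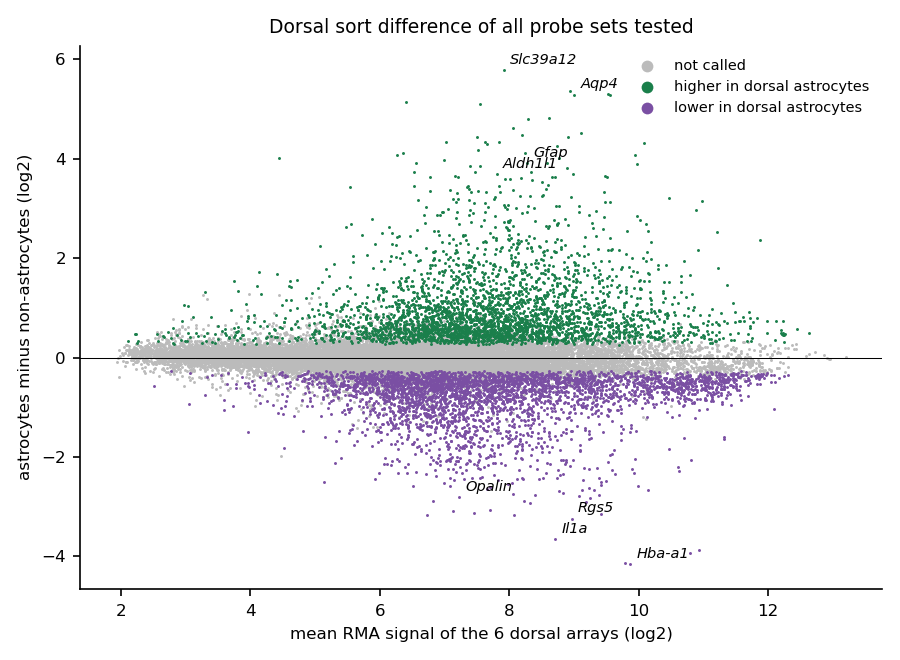
Difference between dorsal astrocytes and dorsal non-astrocytes (log2, vertical axis) against the mean log2 RMA signal of the 6 dorsal arrays (horizontal axis), with 1 point per probe set for all 28467 tested. The 3180 probe sets called higher are green, the 3588 called lower are purple and the rest are grey, and the range runs from Slc39a12 at 5.78 to Hba-a1 at -4.16.

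Gene names limit what can be read from counts. Names were known for 5116 probe sets of 4575 genes, nearly all through the authors' deposited table of astrocytes against non-astrocytes, whose 5158 entries reach an adjusted p of 0.15. These genes were therefore selected on the same arrays, and 4042 of the 4575 were called here (88.3%), 2030 higher (44.4%) and 2012 lower (44%), with a median difference of -0.24 against -0.02 over all probe sets. Of the unnamed probe sets 2239 were called, and 190 of these differed at least 2-fold. The counts of list members below are read against 88.3% for calls in either direction, 44.4% for calls higher and 44% for calls lower. A listed gene without a name has no level here. Of 864 genes on 37 lists, 472 had one.

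The sorting marker was high in the 3 arrays titled GFP-positive and low in the 3 titled GFP-negative. Aldh1l1, a dehydrogenase of folate metabolism whose promoter drives the GFP, read 9.55, 10.04 and 9.37 in dorsal astrocytes and 5.89, 6.05 and 5.92 in dorsal non-astrocytes. The groups were far apart, by 3.70 ± 0.17 or 13-fold (adjusted p = 5.58e-06). The 225 bases from -250 to -26 of the start of the transcript that RefSeq lists for this window are shown. They lie at chr6:90550543-90550767 on the plus strand of GRCm38.p6 as given by RefSeq, upstream of the gene whose promoter drives the GFP. Whether the transgene carries these bases was not tested. Capitals mark the CCAAT box, which the window holds in its reverse complement ATTGG at both places, the first bases being at -103 and -63 from that start. The 25 bases next to the start are not printed, since another annotated transcript begins before them.
Aldh1l1: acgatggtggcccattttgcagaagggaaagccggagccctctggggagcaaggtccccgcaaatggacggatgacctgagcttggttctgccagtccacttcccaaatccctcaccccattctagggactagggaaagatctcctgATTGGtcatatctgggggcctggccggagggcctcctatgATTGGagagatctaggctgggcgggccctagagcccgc

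The other defining genes of astrocytes were also far higher in the GFP-positive sort. Slc39a12, a zinc transporter, had the largest difference of any named gene, with levels of 10.75, 10.52 and 11.15 in dorsal astrocytes and 4.92, 5.09 and 5.06 in dorsal non-astrocytes. That was a difference of 5.78 ± 0.16, or 55.1-fold (adjusted p = 5.61e-07). Aqp4, the water channel of astrocyte endfeet, read 11.56, 11.58 and 11.81 in dorsal astrocytes and 6.41, 6.35 and 6.32 in dorsal non-astrocytes, a difference of 5.29 ± 0.10 (adjusted p = 2.44e-07). Gfap, the intermediate filament of astrocytes, varied more between replicates. Its levels were 9.67, 10.43 and 10.59 in dorsal astrocytes and 5.90, 6.75 and 6.28 in dorsal non-astrocytes, with replicate 1 the lowest of both groups, and the difference was 3.92 ± 0.28 (adjusted p = 4.4e-05). Of the 26 genes on the list of astrocyte markers 25 had a level and 25 were called higher, with a median difference of 3.64 and a range of 1.32 to 5.78. The list median ran from 10.94 to 11.15 over the astrocyte arrays and 7.37 to 7.43 over the non-astrocyte arrays, so the groups did not overlap.

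Uptake of transmitters was a group in which all named members rose. Of the 14 named genes of neurotransmitter uptake and metabolism, 14 were called higher, with a median of 2.70. Slc6a11, the GABA transporter GAT-3, read 12.14, 12.21 and 12.17 in dorsal astrocytes and 6.57, 7.01 and 7.03 in dorsal non-astrocytes, and its 39.4-fold difference was the largest of the group (adjusted p = 3.83e-07). Slc1a3, the glutamate transporter GLAST, read 11.27, 11.41 and 11.28 in dorsal astrocytes and 7.76, 7.64 and 7.65 in dorsal non-astrocytes, a difference of 3.64 ± 0.09. Slc1a2, the glutamate transporter GLT-1, read 11.7998, 11.82 and 12.18 in dorsal astrocytes and 7.89, 8.12 and 8.08 in dorsal non-astrocytes, a difference of 3.90 ± 0.13. Both glutamate transporters thus stood at least 3.64 log2 units above the negative sort. The amino acid transporters Slc7a10, which carries serine and glycine, and Slc7a11, which exchanges cystine for glutamate, were higher by 4.25 ± 0.10 (adjusted p = 3.83e-07) and 3.86 ± 0.21 (adjusted p = 1.39e-05).

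Ion and water handling rose with few exceptions. Of 15 named genes, 13 were called higher and 1 lower, with a median of 3.00. Slc4a4, the sodium bicarbonate cotransporter, read 12.11, 12.23 and 12.30 in dorsal astrocytes and 6.72, 7.00 and 7.04 in dorsal non-astrocytes, a difference of 5.29 ± 0.11 (adjusted p = 2.93e-07). The P-type ATPase gene Atp13a4 read 10.48, 10.74 and 10.86 in dorsal astrocytes and 5.77, 5.796 and 6.09 in dorsal non-astrocytes, a difference of 4.81 ± 0.13. Kcnj10, the potassium channel Kir4.1 that also occurs in oligodendrocytes, was higher by a smaller amount. Its levels were 11.07, 11.18 and 11.29 in dorsal astrocytes and 9.26, 9.15 and 9.18 in dorsal non-astrocytes, a difference of 1.98 ± 0.09 (adjusted p = 6.34e-06).

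**Figure D2:**
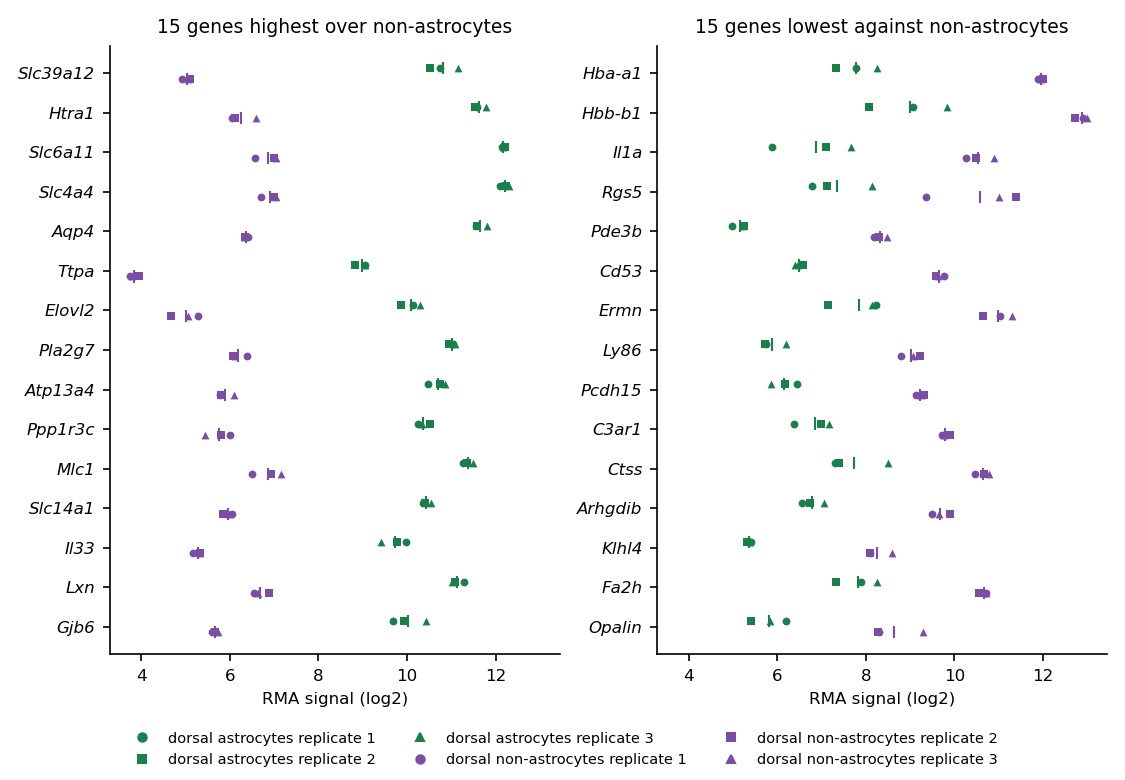
Log2 RMA signal (horizontal axis) of the 15 named genes of largest positive difference (left) and the 15 of largest negative difference (right), with 1 point per array, the replicate by shape, dorsal astrocytes in green and dorsal non-astrocytes in purple, and a short line at each group mean. Genes with overlapping groups were left out by the rule of selection, so none shown overlaps. Rgs5 has the widest spread, with non-astrocytes at 9.35, 11.40 and 11.02.

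Other genes at the head of the list had varied roles. Htra1, a secreted serine protease, read 11.57, 11.53 and 11.79 in dorsal astrocytes and 6.05, 6.13 and 6.60 in dorsal non-astrocytes, a difference of 5.37 ± 0.16 (adjusted p = 8.1e-07). Ttpa, which binds vitamin E, read 9.05, 8.84 and 9.05 in dorsal astrocytes and 3.76, 3.96 and 3.79 in dorsal non-astrocytes, and a fainter probe set of the gene gave 2.68 in place of 5.14. Pla2g7, a phospholipase that inactivates platelet-activating factor, was higher by 4.83 ± 0.11, and Mlc1, a membrane protein of astrocyte junctions whose human gene is mutated in a leukodystrophy, by 4.51 ± 0.16. Slc14a1, a urea transporter, was higher by 4.48 ± 0.10 and Lxn, an inhibitor of carboxypeptidases, by 4.44 ± 0.12. For each of these 6 genes the groups were separated by several log2 units, and the adjusted p was at most 2.06e-06.

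Genes of energy stores and lipids were mostly higher in dorsal astrocytes. Among glycogen and glucose genes 16 of 19 named were called higher and 0 lower, with a median of 1.09. Ppp1r3c, a subunit that targets protein phosphatase to glycogen, read 10.26, 10.52 and 10.33 in dorsal astrocytes and 6.01, 5.8002 and 5.45 in dorsal non-astrocytes, a difference of 4.61 ± 0.15. Aldoc, the aldolase of the brain, read 12.18, 12.18 and 12.34 in dorsal astrocytes and 7.90, 7.93 and 7.92 in dorsal non-astrocytes, a difference of 4.32 ± 0.09. The glycogen phosphorylases Pygm and Pygb, which release glucose units from glycogen, were higher by 3.00 ± 0.20 (adjusted p = 3.36e-05) and 2.93 ± 0.10 (adjusted p = 1.3e-06). Scaffold, breakdown and glycolysis genes thus lay on the same side, and the 3 members not called had differences of 0.37 to 0.39.

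Of 28 named genes of fatty acid and lipid handling 27 were called higher and 1 lower, with a median of 1.41. Elovl2, which elongates polyunsaturated fatty acids, read 10.15, 9.86 and 10.29 in dorsal astrocytes and 5.29, 4.68 and 5.05 in dorsal non-astrocytes, a difference of 5.09 ± 0.17 (adjusted p = 1.47e-06). Abcd2, a peroxisomal transporter of fatty acids, read 9.44, 9.40 and 9.58 in dorsal astrocytes and 5.64, 5.63 and 5.62 in dorsal non-astrocytes, a difference of 3.85 ± 0.09. Lcat, which esterifies cholesterol on lipoproteins, and Acsbg1, an acyl-CoA synthetase, were higher by 3.57 ± 0.21 (adjusted p = 1.68e-05) and 2.90 ± 0.12 (adjusted p = 3.82e-06). Synthesis of cholesterol did not share this direction. Of its 13 named genes 2 were called higher, 7 lower and 4 neither way, with a median of -0.36. Tm7sf2 and Dhcr7, reductases of late steps, were the 2 that rose, by 1.00 ± 0.14 and 0.71 ± 0.11. Lss, the lanosterol synthase, and Ebp, a sterol isomerase, fell, with differences of -0.85 and -0.95. The number of these genes called lower was between 3 and 7 when 1 of the 6 arrays was left out, with 3 called without dorsal non-astrocytes replicate 1 and 4 without dorsal non-astrocytes replicate 2 or dorsal astrocytes replicate 3.

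Antioxidant genes were higher as a rule. Of 20 named members 17 were called higher and 0 lower, with a median of 1.44. Mgst1, a membrane-bound glutathione transferase, read 9.25, 9.14 and 9.19 in dorsal astrocytes and 4.80, 4.88 and 4.90 in dorsal non-astrocytes, a difference of 4.34 ± 0.08. Gstm1 and Gsta4, soluble glutathione transferases, were higher by 3.92 ± 0.14 (adjusted p = 1.91e-06) and 3.13 ± 0.20 (adjusted p = 3.11e-05). For the 3 members that were not called, Gss, Gpx4 and Hmox1, the differences were -0.21, 0.33 and -0.27.

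Genes of contact between cells followed. Of 24 named gap junction and adhesion genes 21 were called higher and 3 lower, with a median of 1.07. Gjb6 and Gja1, which encode connexin proteins of astrocyte gap junctions, were higher by 4.35 ± 0.18 and 4.07 ± 0.12. Hepacam, an adhesion protein that binds Mlc1, was higher by 2.80 ± 0.11. Extracellular matrix genes went both ways, 12 higher, 7 lower and 4 not called of 23 named. The protease inhibitor chain gene Itih3, the hyaluronan link protein gene Hapln1 and the tenascin gene Tnc were higher by 4.01 ± 0.12, 3.63 ± 0.09 and 3.45 ± 0.17. Tnr, the tenascin made by oligodendrocyte lineage cells, was lower, with levels of 8.17, 8.31 and 8.26 in dorsal astrocytes and 10.73, 10.82 and 10.64 in dorsal non-astrocytes.

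Secreted factors that act on synapses were higher in 13 of 17 named cases and lower in 4, with a median of 1.37. Il33, a cytokine kept in nuclei, read 9.98, 9.77 and 9.41 in dorsal astrocytes and 5.17, 5.33 and 5.33 in dorsal non-astrocytes, a difference of 4.45 ± 0.15 (adjusted p = 1.3e-06). The glypicans Gpc5 and Gpc4, heparan sulphate proteoglycans of the cell surface, were higher by 2.74 ± 0.23 (adjusted p = 9.71e-05) and 2.51 ± 0.22 (adjusted p = 0.000145). Sparcl1, the matrix protein hevin, read 13.04, 13.04 and 13.07 in dorsal astrocytes and 10.30, 10.81 and 10.95 in dorsal non-astrocytes. Its difference was 2.37 ± 0.16. Of 20 named receptors 17 were called higher and 2 lower. The metabotropic glutamate receptor gene Grm3 was higher by 3.74 ± 0.32 (adjusted p = 0.00012), the GABA receptor subunit genes Gabra4 and Gabra2 by 3.20 ± 0.16 and 3.18 ± 0.25, and the neurotensin receptor gene Ntsr2 by 3.01 ± 0.23.

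**Figure D3:**
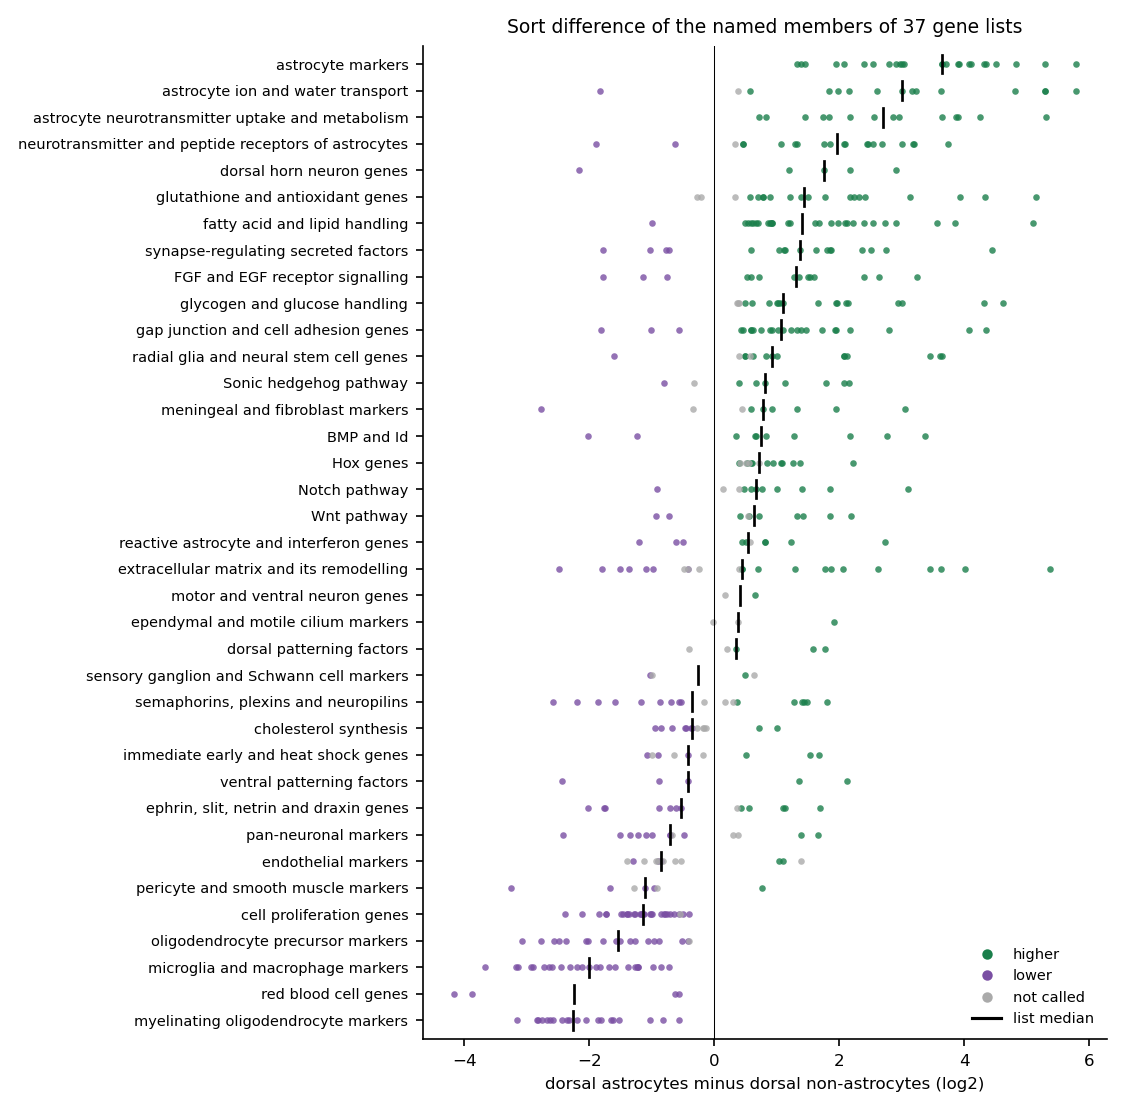
Difference between dorsal astrocytes and dorsal non-astrocytes (log2, horizontal axis) of each named member of the 37 gene lists (vertical axis), green where called higher, purple where called lower and grey where not called, with a black line at the list median. Medians run from 3.64 for astrocyte markers to -2.26 for myelinating oligodendrocyte markers, 23 lie above 0 and 14 below, and named genes are a selected set.

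Signalling pathways of progenitors and glia were described in the order of receptors and targets. Of 11 named genes of the Notch pathway, in which cleaved receptors act with the DNA-binding protein Rbpj, 8 were called higher and 1 lower. The receptor gene Notch2 read 7.92, 8.44 and 8.04 in dorsal astrocytes and 6.27, 6.40 and 6.16 in dorsal non-astrocytes, a difference of 1.86 ± 0.14 (adjusted p = 7.13e-05). Among its known targets, the repressor gene Hey2 read 9.31, 9.12 and 9.11 in dorsal astrocytes and 5.83, 6.06 and 6.33 in dorsal non-astrocytes, a difference of 3.10 ± 0.14 (adjusted p = 5.22e-06), and the feedback regulator Nrarp was higher by 1.40 ± 0.11 (adjusted p = 9.15e-05). Lfng, which adds sugars to Notch receptors, was higher by 1.01 ± 0.11 (adjusted p = 0.000457). Rbpj was the member called lower, with a difference of -0.92. The 250 bases before the start of Hey2, chr10:30842784-30843033 on the minus strand of GRCm38.p6, are shown as the promoter of the Notch target with the largest difference. The Rbpj motif GTGGGAA was searched on both strands, and capitals mark its match as TTCCCAC, with the first base at -207.
Hey2: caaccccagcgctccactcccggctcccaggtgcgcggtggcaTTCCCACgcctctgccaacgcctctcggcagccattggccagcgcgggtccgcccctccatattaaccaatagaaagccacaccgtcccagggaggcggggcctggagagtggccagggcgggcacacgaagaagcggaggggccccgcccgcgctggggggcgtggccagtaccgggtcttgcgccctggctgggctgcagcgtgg
Of the 11 named Notch genes 8 had a promoter window, and the motif was present in 2 of these, Hey2 included. It was present in 5.42% of 32851 RefSeq promoter windows of 250 bases. Hey2 was picked for its difference, and the matches were not tested against the differences.

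Receptors of growth factors were higher as well. Of 14 named genes of FGF and EGF receptor signalling 11 were called higher and 3 lower, with a median of 1.32. Egfr, a receptor of epidermal growth factor, read 9.37, 9.46 and 9.36 in dorsal astrocytes and 6.24, 6.34 and 5.89 in dorsal non-astrocytes, a difference of 3.24 ± 0.13, and Fgfr3, a receptor of fibroblast growth factors found in astrocytes and their progenitors, was higher by 2.40 ± 0.10 (adjusted p = 4.94e-06). Erbb3, the neuregulin receptor of oligodendrocyte lineage and Schwann cells, read 6.07, 6.23 and 6.88 in dorsal astrocytes and 8.43, 7.89 and 8.21 in dorsal non-astrocytes, and fell by 1.78 on the log2 scale. In the BMP and Id list 8 of 10 named genes were called higher and 2 lower. The receptor gene Bmpr1b was higher by 3.38 ± 0.16 (adjusted p = 7.71e-06) and the inhibitors of helix-loop-helix factors Id3 and Id2 by 2.77 ± 0.22 and 2.18 ± 0.11, while the ligand gene Bmp4 fell by 2.02 on the log2 scale.

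The hedgehog and Wnt lists were smaller. Of 9 named hedgehog genes 7 were called higher and 1 lower. The receptor gene Ptch1 read 10.51, 10.70 and 10.59 in dorsal astrocytes and 8.54, 8.42 and 8.36 in dorsal non-astrocytes, a difference of 2.16 ± 0.09, the transcription factor genes Gli3 and Gli2 were higher by 2.08 ± 0.11 and 1.14 ± 0.15, and the co-receptor gene Boc by 1.79 ± 0.12. Of 10 named Wnt genes 7 were called higher and 2 lower. The receptor genes Fzd1 and Lrp4 were higher by 2.19 ± 0.13 and 1.85 ± 0.10, and the ligand genes Wnt7a and Wnt5a by 1.42 ± 0.17 and 1.32 ± 0.12. Radial glia and neural stem cell genes were higher in 12 of 15 named cases and lower in 1, led by Slc1a3 and by Hopx, a homeodomain protein without DNA binding, which was higher by 3.61 ± 0.09.

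Of 5 named dorsal positional factors 3 were called higher and 2 neither way, with a median of 0.34. Zic1, a zinc finger factor of dorsal cord, read 8.81, 8.46 and 8.62 in dorsal astrocytes and 6.61, 7.10 and 6.86 in dorsal non-astrocytes, a difference of 1.78 ± 0.15 (adjusted p = 9.55e-05). Pax3, a paired box factor of dorsal progenitors, read 8.35, 8.32 and 8.09 in dorsal astrocytes and 6.64, 6.62 and 6.75 in dorsal non-astrocytes, a difference of 1.59 ± 0.10 (adjusted p = 2.72e-05). In ventral cord the same sorts differed by 0.53 and 0.63, but the test of dorsal against ventral did not pass for either gene (limma interaction, adjusted p = 0.114 and 0.345). Msx1, a homeodomain factor of the dorsal midline, was higher by 0.34 ± 0.10, and lost its call without dorsal astrocytes replicate 1, 2 or 3 or dorsal non-astrocytes replicate 1 or 3 (limma adjusted p over all alternatives 0.0205 to 0.217). Of the 5 named ventral factors, Pax6 and Dbx2, which also occur in progenitors of intermediate levels, were higher by 2.12 ± 0.17 and 1.36 ± 0.19. Nkx2-2 and Olig2, factors of the oligodendrocyte lineage, fell, with differences of -0.88 and -0.43, as did Sulf2, a sulphatase of heparan sulphate, with -2.43.

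Hox genes, which set the position along the head to tail axis, lay above 0 in all 15 named cases, with differences of 0.39 to 2.22, and 11 were called. Hoxc8 read 9.53, 9.36 and 9.45 in dorsal astrocytes and 7.36, 6.96 and 7.34 in dorsal non-astrocytes, a difference of 2.22 ± 0.13 (adjusted p = 1.62e-05), and Hoxc9, Hoxb5 and Hoxb6 were higher by 1.37 ± 0.19, 1.26 ± 0.14 and 1.08 ± 0.17. Leaving out 1 of the 6 arrays gave between 8 and 11 Hox genes called, none of them lower, the fewest without dorsal non-astrocytes replicate 1.

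Genes of the oligodendrocyte lineage were lower in dorsal astrocytes for nearly all named markers. Of 18 named precursor markers 17 were called lower in dorsal astrocytes, with a median of -1.54, and of 20 named myelin markers 20 were called lower, with a median of -2.26. Pcdh15, a protocadherin of precursors, read 6.46, 6.17 and 5.86 in dorsal astrocytes and 9.14, 9.32 and 9.24 in dorsal non-astrocytes, and fell by 3.07 on the log2 scale (adjusted p = 7.71e-06). Pdgfra, the growth factor receptor that defines precursors, read 8.28, 8.16 and 7.57 in dorsal astrocytes and 10.78, 10.82 and 10.72 in dorsal non-astrocytes. Gpr17, a receptor of cells about to differentiate, read 8.28, 7.75 and 8.41 in dorsal astrocytes and 10.71, 10.79 and 10.62 in dorsal non-astrocytes. All 3 had non-astrocyte arrays within about 0.2 log2 units of each other.

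Ermn, a cytoskeletal protein of myelin, read 8.24, 7.15 and 8.14 in dorsal astrocytes and 11.02, 10.65 and 11.31 in dorsal non-astrocytes, and fell by 3.15 on the log2 scale (adjusted p = 0.000173). Fa2h, which makes the hydroxylated lipids of myelin, read 7.90, 7.33 and 8.25 in dorsal astrocytes and 10.72, 10.56 and 10.72 in dorsal non-astrocytes, and Opalin, a protein of the myelin loops, read 6.19, 5.41 and 5.84 in dorsal astrocytes and 8.31, 8.28 and 9.30 in dorsal non-astrocytes. In these genes and in Ppp1r14a, an inhibitor of myosin phosphatase, at 7.54, 6.28 and 7.25, replicate 2 was the lowest of the astrocyte arrays. The list median of myelin markers was 8.13 to 8.42 in astrocytes against 10.53 to 10.93 in non-astrocytes. Whether myelin RNA in the positive sort came from other cells was not tested.

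**Figure D4:**
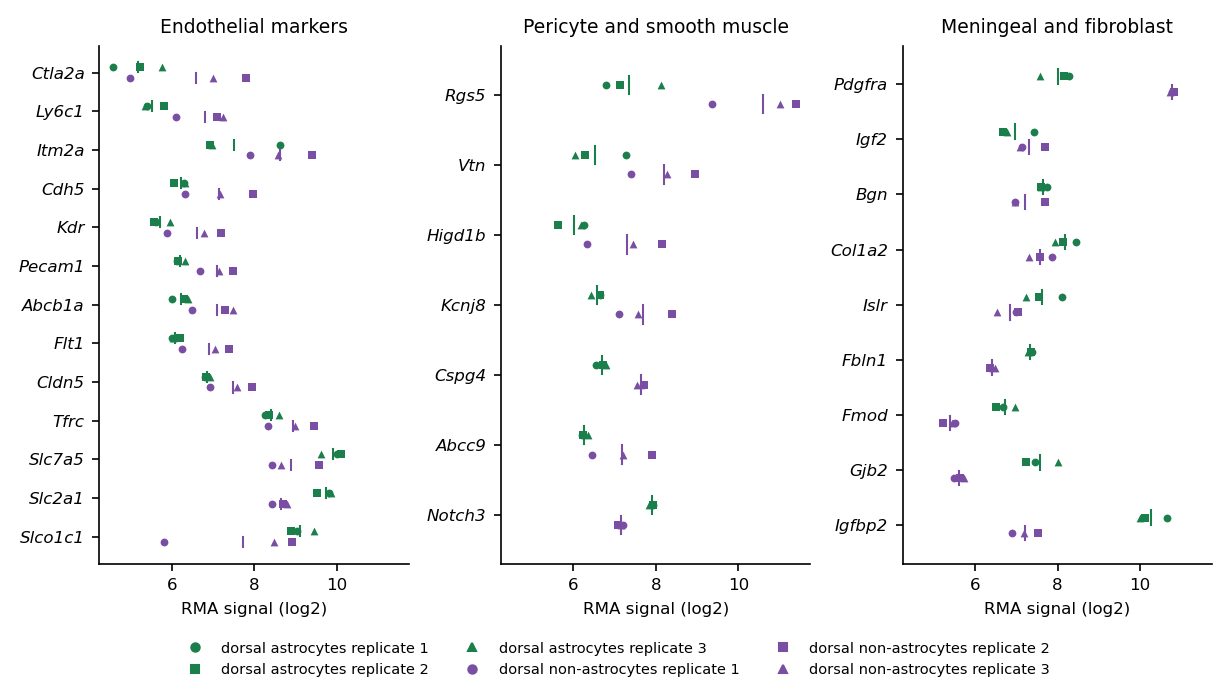
Log2 RMA signal (horizontal axis) of the named endothelial, pericyte and smooth muscle, and meningeal and fibroblast markers in the 6 dorsal arrays, with replicates by shape, dorsal astrocytes in green, dorsal non-astrocytes in purple and a short line at each group mean. Dorsal non-astrocytes replicate 1 lies lowest of its group for most vascular genes, as for Rgs5 with 9.35, 11.40 and 11.02.

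Microglia and macrophage markers were lower in 25 of 25 named cases, with a median of -2.002. Il1a, an inflammatory cytokine, read 5.89, 7.10 and 7.67 in dorsal astrocytes and 10.26, 10.48 and 10.89 in dorsal non-astrocytes, so that the astrocyte arrays spread over more than 1 log2 unit, and it fell by 3.66 (adjusted p = 0.00043). Cd53, a tetraspanin of leukocytes, read 6.51, 6.57 and 6.40 in dorsal astrocytes and 9.76, 9.59 and 9.63 in dorsal non-astrocytes, with a steadier difference of -3.17 (adjusted p = 8.16e-07). Ly86, a partner of toll-like receptor proteins, and C3ar1, the receptor of a complement fragment, fell, with differences of -3.14 and -2.94. Ctss, a lysosomal protease, and Arhgdib, a regulator of small GTPases in blood cells, fell, with differences of -2.90 and -2.89. Pde3b, a phosphodiesterase, and Klhl4, a kelch-like protein, are on none of the lists and fell, with differences of -3.17 and -2.89.

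The 2 largest falls among named genes were in globins. Hba-a1, an alpha globin, read 7.78, 7.32 and 8.26 in dorsal astrocytes and 11.88, 12.01 and 11.95 in dorsal non-astrocytes, and fell by 4.16 on the log2 scale, or 17.9-fold (adjusted p = 8.78e-06). Hbb-b1, a beta globin, read 9.07, 8.08 and 9.84 in dorsal astrocytes and 12.91, 12.73 and 12.99 in dorsal non-astrocytes, and fell by 3.88 (adjusted p = 0.000217). Globin copies are nearly identical and share probes, so which copy the signal stands for is uncertain. Alas2, the haem synthesis enzyme of red cells, and Slc4a1, their anion exchanger, fell, with differences of -0.62 and -0.57. Globin signal was highest in astrocyte replicate 3 and lowest in astrocyte replicate 2, and how far red cell RNA moves other values was not tested.

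The number of vessel markers called varied with the arrays and with the fit. Of 13 named endothelial markers 2 were called higher, 3 lower and 8 neither way, and of 7 named pericyte and smooth muscle markers 1 was called higher and 4 lower. The pericyte markers called lower include Cspg4, with a difference of -0.96, which oligodendrocyte precursors share. Dorsal non-astrocytes replicate 1 had the lowest level of its group in 13 of the 13 endothelial markers and in 5 of the 7 pericyte markers. Rgs5, a regulator of G proteins in pericytes, read 6.78, 7.12 and 8.13 in dorsal astrocytes and 9.35, 11.40 and 11.02 in dorsal non-astrocytes. The endothelial cadherin gene Cdh5, shown for its spread after its values were seen, read 6.30, 6.05 and 6.32 in dorsal astrocytes and 6.32, 7.97 and 7.16 in dorsal non-astrocytes, and was not called (adjusted p = 0.101). Without dorsal non-astrocytes replicate 1, 9 of the 13 endothelial markers were called lower and 1 higher, and 6 of the 7 pericyte markers were called lower and 1 higher. Without any other of the 6 arrays 2 or 3 markers of each list were called lower, with 2 of the pericyte list called without dorsal astrocytes replicate 2 or 3 or dorsal non-astrocytes replicate 3. The 2 endothelial markers called higher became 1 without dorsal astrocytes replicate 1 or 2 or dorsal non-astrocytes replicate 1 or 3. The endothelial median moved from -0.85 to -1.15 without dorsal non-astrocytes replicate 1 and to -0.58 without dorsal non-astrocytes replicate 2. Without both arrays numbered 1, 10 endothelial markers were called lower, and without both arrays numbered 2 or 3 it was 0. With all 6 dorsal arrays, 7 endothelial and 6 pericyte markers were called lower in a fit over all 12 arrays, 6 and 5 with the replicate number as a block, and 2 and 2 when control-type probe sets were tested too. Among probe sets above the median signal 3 of 9 endothelial and 6 of 7 pericyte markers were called lower. Whether fewer vessel cells were sorted in dorsal non-astrocytes replicate 1 was not tested.

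The calls of 2 pericyte genes were each lost when any 1 of several arrays was left out. Vtn, the matrix protein vitronectin, read 7.27, 6.28 and 6.04 in dorsal astrocytes and 7.38, 8.95 and 8.27 in dorsal non-astrocytes, and lost its call without dorsal astrocytes replicate 2 or 3 or dorsal non-astrocytes replicate 2 or 3, with limma adjusted p over all alternatives of 0.00211 to 0.178. Kcnj8, a potassium channel of pericytes, fell by 1.11 and lost its call without dorsal astrocytes replicate 1, 2 or 3 or dorsal non-astrocytes replicate 3 (adjusted p 0.00388 to 0.125). Slc2a1, the glucose carrier of vessels that astrocytes also use, was higher in astrocytes by 1.09 ± 0.13 (adjusted p = 0.000639). Slco1c1, a thyroid hormone carrier shared by both cell types and named after its values were seen, read 9.03, 8.88 and 9.43 in dorsal astrocytes and 5.81, 8.91 and 8.47 in dorsal non-astrocytes, and its non-astrocyte arrays spread too widely for a call.

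The list of meningeal and fibroblast markers had 9 named genes, of which 6 were called higher and 1 lower, and leaving out 1 array gave 4 to 6 higher. Whether the higher signals came from astrocytes or from meningeal cells in the positive sort was not tested. The largest rise of the list was in Igfbp2, a binder of insulin-like growth factors. Igfbp2 read 10.65, 10.13 and 9.99 in dorsal astrocytes and 6.90, 7.52 and 7.18 in dorsal non-astrocytes. The connexin gene Gjb2 followed with 1.95 ± 0.19 and the matrix gene Fmod with 1.32 ± 0.14. The member called lower was Pdgfra, which oligodendrocyte precursors share, with a difference of -2.77. Col1a2, a chain of fibrous collagen named after its values were seen, read 8.45, 8.14 and 7.93 in dorsal astrocytes and 7.87, 7.57 and 7.3002 in dorsal non-astrocytes. Of 3 named ependymal markers, Mia, a secreted protein first found in melanoma, was the 1 called, at 8.79, 8.86 and 9.504 in dorsal astrocytes and 6.29, 7.18 and 7.93 in dorsal non-astrocytes.

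Neuronal genes were lower with exceptions. Of 14 named pan-neuronal markers 9 were called lower and 2 higher, with a median of -0.71. Dcx, a microtubule protein of young neurons, read 6.19, 6.11 and 6.36 in dorsal astrocytes and 8.67, 8.73 and 8.53 in dorsal non-astrocytes, and fell by 2.42 on the log2 scale (adjusted p = 4.32e-06). Gap43, a protein of growing axons, read 8.69, 8.302 and 9.12 in dorsal astrocytes and 10.06, 10.17 and 10.39 in dorsal non-astrocytes. The genes called higher were Scg3, a protein of secretory granules, at 11.50, 11.56 and 11.797 in dorsal astrocytes and 9.93, 9.96 and 9.98 in dorsal non-astrocytes, and Nrxn3, a presynaptic adhesion protein, at 9.01, 9.35 and 8.86 in dorsal astrocytes and 7.52, 7.83 and 7.70 in dorsal non-astrocytes. The neurofilament genes Nefl and Nefm had differences of 0.37 and 0.31 and were not called.

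Of 40 genes chosen for dorsal horn neurons only 5 had a name. Tac1, which encodes the peptide substance P, read 7.34, 6.36 and 6.06 in dorsal astrocytes and 8.02, 8.51 and 9.74 in dorsal non-astrocytes, and fell by 2.17, with astrocyte replicate 1 nearest to the other group. The other 4 rose. Rorb and Rora, orphan nuclear receptors that occur in glia as well, read 8.69, 9.05 and 8.93 in dorsal astrocytes and 5.98, 6.14 and 5.85 in dorsal non-astrocytes for the former and were higher by 2.90 ± 0.12 and 1.76 ± 0.12. Reln, a secreted matrix glycoprotein, was higher by 2.17 ± 0.20 and the transcription factor gene Zfhx4 by 1.19 ± 0.12. The 2 named motor and ventral neuron genes had differences of 0.65 for the nuclear receptor gene Esrrg, which was called, and 0.17 for the receptor gene Ret, which was not.

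Proliferation genes were lower in 29 of 30 named cases, with a median of -1.15. Top2a, the topoisomerase of dividing cells, read 7.25, 7.02 and 5.90 in dorsal astrocytes and 9.01, 8.81 and 8.70 in dorsal non-astrocytes, and fell by 2.12 on the log2 scale (adjusted p = 0.00194). Mki67, the proliferation antigen Ki-67, read 6.002, 6.11 and 5.87 in dorsal astrocytes and 8.02, 7.98 and 7.52 in dorsal non-astrocytes, and fell by 1.85 (adjusted p = 8.22e-05). Bub1, a kinase of the spindle checkpoint, read 5.42, 5.98 and 4.49 in dorsal astrocytes and 7.19, 6.97 and 6.94 in dorsal non-astrocytes. Top2a and Bub1 were lowest in astrocyte replicate 3, and in Mki67 the 3 astrocyte arrays lay close together. Anln, which binds actin in the cleavage furrow and also occurs in myelin, fell by 2.39.

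The promoters of Top2a and Mki67 are shown because cell cycle genes that move together are known to share elements close to the start, CCAAT boxes and the cell cycle homology element TTTGAA. Both motifs were searched on both strands in the 250 bases before each start, and capitals mark CCAAT or its reverse complement ATTGG, and TTTGAA or its reverse complement TTCAAA. The sequences come from RefSeq on the minus strand of GRCm38.p6, at chr11:99024200-99024439 for Top2a and chr7:135716451-135716629 for Mki67, cut where another annotated transcript begins, so that they run from -250 to -11 and from -250 to -72. None of the marked matches overlaps another.
Top2a: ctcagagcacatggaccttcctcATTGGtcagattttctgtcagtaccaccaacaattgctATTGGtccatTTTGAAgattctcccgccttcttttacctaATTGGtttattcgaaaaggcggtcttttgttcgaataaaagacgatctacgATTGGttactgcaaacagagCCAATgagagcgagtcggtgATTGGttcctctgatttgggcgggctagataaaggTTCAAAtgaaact
Mki67: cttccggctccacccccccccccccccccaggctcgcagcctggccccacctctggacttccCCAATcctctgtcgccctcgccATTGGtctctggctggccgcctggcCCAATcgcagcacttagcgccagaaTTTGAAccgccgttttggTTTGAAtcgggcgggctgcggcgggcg
Top2a held 6 CCAAT boxes and 2 TTTGAA elements, and Mki67 held 3 and 2. Of 27 named proliferation genes with a promoter window 23 held a CCAAT box (85.2%) and 8 a TTTGAA element (29.6%), against 33.8% and 16% of all 32851 windows. These matches describe the letters of the windows and were not tested against the differences.

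Guidance molecules were called in both directions, as were named genes in general, with 44.4% called higher and 44% lower. Of 18 named semaphorin, plexin and neuropilin genes 6 were called higher and 9 lower. Sema4b, a membrane semaphorin, was higher by 1.80 ± 0.16 (adjusted p = 0.000129). Sema3d, a secreted semaphorin, read 5.97, 5.57 and 5.82 in dorsal astrocytes and 8.46, 8.35 and 8.32 in dorsal non-astrocytes, and fell by 2.59, and Sema5a and the receptor gene Plxnb3 fell, with differences of -2.19 and -1.86. Of 13 named ephrin, slit, netrin and draxin genes 5 were called higher and 7 lower. The slit receptor gene Robo2 was higher by 1.70 ± 0.17 (adjusted p = 0.000248). The ephrin receptor gene Ephb1 and the netrin receptor genes Unc5c and Dcc fell, with differences of -2.01, -1.76 and -1.76.

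Early response and reactive genes gave no single direction. Of 9 named early response and heat shock genes, which dissociation is known to induce, 3 were called higher, 3 lower and 3 neither way. Fos, an early response factor, read 8.42, 8.43 and 7.95 in dorsal astrocytes and 6.89, 6.68 and 6.66 in dorsal non-astrocytes, and Gadd45g, a stress gene, was higher by 1.68 ± 0.20, whereas Atf3 and Ier3, also stress genes, fell, with differences of -1.07 and -0.91. Of 10 named genes of reactive astrocytes and interferon responses 6 were called higher and 3 lower. Serpina3n, a secreted protease inhibitor, was higher by 2.73 ± 0.18 (adjusted p = 2.88e-05) and the cytokine receptor subunit gene Il6st by 0.81 ± 0.11 (adjusted p = 0.00104), and Cd14, a receptor of bacterial lipid on macrophages, fell by 1.20.

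Most of the sort difference was shared with ventral cord. The same direction was seen there for 6575 of the 6768 called probe sets and the opposite for 193. Across the 28467 probe sets the dorsal and ventral differences correlated with Pearson r = 0.90, a description over probe sets of arrays normalized together. The test of the difference between both, limma's interaction over 12 arrays, called 18 probe sets (0.0632%), 9 with a more positive dorsal difference and 9 with a more negative one, and 2059 had an unadjusted p below 0.05. The called probe sets include 14 of the 5116 with a gene name. Some names came from the authors' 39 entries of dorsal against ventral astrocytes, which were selected on the same arrays. Named probe sets are therefore no unselected sample for this test.

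**Figure D5:**
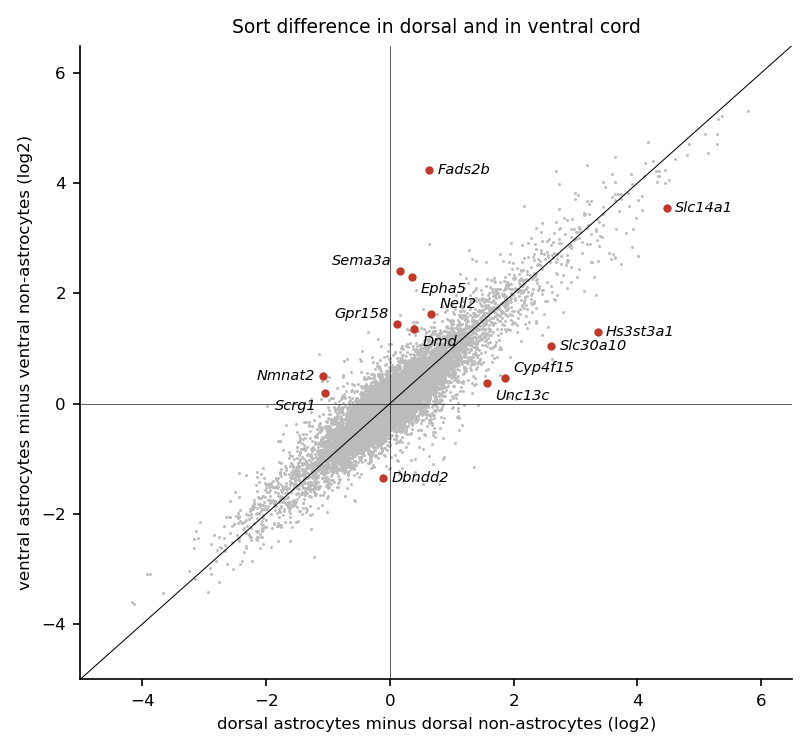
Difference between astrocytes and non-astrocytes in ventral cord (log2, vertical axis) against the same difference in dorsal cord (log2, horizontal axis), with 1 grey point per probe set and the line of equality. The 14 named genes called in the interaction are red, from Hs3st3a1, higher in dorsal astrocytes by 3.36 against 1.295 in ventral cord, to Fads2b with 0.64 against 4.24.

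In 6 of the 14 genes the dorsal difference was the more positive. Hs3st3a1, a sulphotransferase that modifies heparan sulphate, read 8.40, 8.55 and 8.40 in dorsal astrocytes and 5.30, 5.07 and 4.90 in dorsal non-astrocytes. In ventral cord it read 6.33, 6.38 and 6.91 in astrocytes and 5.43, 5.03 and 5.27 in non-astrocytes, and the dorsal difference exceeded the ventral one by 2.06 ± 0.22 (adjusted p = 0.00862). Slc30a10, a manganese transporter, was higher in dorsal astrocytes by 2.61 and in ventral astrocytes by 1.04 (adjusted p = 0.0428). Cyp4f15, a cytochrome of fatty acid metabolism, had 1.86 against 0.47 (adjusted p = 0.0478), and Unc13c, a protein of vesicle priming, 1.57 against 0.37 (adjusted p = 0.0372). A fainter probe set of Unc13c was called higher in the dorsal comparison, by 0.86. It was not called in the interaction, with 0.72 (limma interaction, adjusted p = 0.345). Slc14a1 was strongly higher in both regions, by 4.48 and 3.55 (adjusted p = 0.0251). Dbndd2 had no dorsal call, at -0.11, and a ventral difference of -1.35 (adjusted p = 0.0478).

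The other 8 genes had the more negative dorsal difference. Sema3a, a secreted semaphorin that repels axons, read 5.55, 6.24 and 5.64 in dorsal astrocytes and 5.78, 5.37 and 5.77 in dorsal non-astrocytes, with overlapping groups, and was not called in dorsal cord (adjusted p = 0.607). In ventral cord it read 7.72, 8.51 and 8.09 in astrocytes and 5.63, 5.70 and 5.79 in non-astrocytes, and the dorsal difference was below the ventral one by -2.23 ± 0.29 (adjusted p = 0.0251). Epha5, an ephrin receptor, read 7.13, 7.45 and 7.13 in dorsal astrocytes and 7.04, 6.70 and 6.88 in dorsal non-astrocytes and 8.87, 9.21 and 8.88 in ventral astrocytes, a difference between regions of -1.94 ± 0.19 (adjusted p = 0.00648). Fads2b, a desaturase paralog, read 4.56, 4.25 and 4.597 in dorsal astrocytes and 3.59, 3.65 and 4.25 in dorsal non-astrocytes, with overlapping groups, and 6.77, 8.46 and 8.52 in ventral astrocytes (adjusted p = 0.0372). Its dorsal call was lost without dorsal astrocytes replicate 1 or 3 or dorsal non-astrocytes replicate 1 or 2 (adjusted p over all alternatives 0.00539 to 0.253).

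In a pair of genes the dorsal and ventral differences had opposite signs, and the ventral difference was not tested on its own. Nmnat2, an enzyme of NAD synthesis in axons, had a dorsal difference of -1.08, with levels of 7.76, 7.73 and 7.57 in dorsal astrocytes and 8.63, 8.96 and 8.70 in dorsal non-astrocytes, and its ventral difference was 0.50 (adjusted p = 0.0235). Scrg1, a small secreted protein, read 9.38, 8.84 and 9.18 in dorsal astrocytes and 10.15, 10.22 and 10.20 in dorsal non-astrocytes, a difference of -1.06, and its ventral difference was 0.19 (adjusted p = 0.0428). Nell2, a secreted ligand of Robo receptors, was higher by 0.66 in dorsal and 1.62 in ventral cord, the orphan receptor gene Gpr158 by 0.11, not called, and 1.44, and the dystrophin gene Dmd by 0.40 and 1.36. The dorsal call of Dmd was lost without dorsal astrocytes replicate 1 or 3 or any of the dorsal non-astrocyte replicates (adjusted p over all alternatives 0.0153 to 0.17).

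Most of the named interaction calls did not hold when single arrays were left out. Epha5 and Hs3st3a1 were called without any 1 of the 12 arrays, and the other 12 named genes lost their call without at least 1 array. The sizes moved less than the calls, with -1.03 to -0.88 for Nell2, -1.06 to -0.87 for Dmd and -4.28 to -3.11 for Fads2b over the alternatives run. With 1 of the 12 arrays left out, between 2 and 14 probe sets were called. The count was 14 without dorsal astrocytes replicate 3, dorsal non-astrocytes replicate 3 or ventral astrocytes replicate 1. It was 2 to 7 without any of the other 9 arrays.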

How the data were processed

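RNA of flow-sorted cells was purified, amplified with the WT-Ovation kit and labelled with biotin, per the labels' protocols, and oligo, RMA and limma are named in the submitters' processing notes. The log2 values deposited by the authors are RMA signals per probe set, normalized over 12 arrays, and their 2 tables of comparisons add a linear ratio as fold change, a t-statistic score and p-values deposited by the authors. For genome build and tool versions: not given in the sources used here. Of 35556 probe sets 476 repeats and 6613 control-type entries without names, recognised by their numbering alone, were left out, and 28467 were tested. Names came from matching the 12 values to 6 decimals with the authors' tables, and symbols were updated through RefSeq of GRCm38.p6 (4310 probe sets by symbol, 620 by synonym, 186 kept as filed, 3 with conflicting names left unnamed).

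The dorsal fit used limma 3.58.1 in R 4.3.3 (lmFit, eBayes) on 6 arrays, with 4 residual and 3.92 prior degrees of freedom, and the interaction 12 arrays, with 8 and 4.6, two-sided with Benjamini-Hochberg adjustment over all 28467. Scripts were tested on simulated data. Groups and lists were chosen with earlier results of these data known. A gene with several probe sets is given by the one of highest mean signal. These were 315 genes, of which 1 had calls in opposite directions. Genes were named by rule, namely the 15 largest changes each way among calls with separated groups, up to 4 called members per list, all named interaction calls, and 5 astrocyte genes throughout. Predicted genes, clones and receptor families were left out. Names added after values were seen are marked, and list members given only as exceptions were also named after their values were seen. Equal replicate numbers in the labels are not said to share an animal, so the main fit has no block. Same-numbered dorsal arrays deviated from their group means together with correlations of 0.04 to 0.10, against -0.10 to 0.06 for unlike numbers. This check left out the ventral arrays used in the interaction, and it cannot decide what a shared number marks. Tables and figures used Python 3.11.15, pandas 2.3.3, numpy 2.4.6 and matplotlib 3.10.9. Some items are not reported here.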

Additional observations from a re-analysis of the deposited data

Results flagged for a closer look

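In 14 named genes the test of the difference itself, limma's interaction over 12 arrays, found that astrocytes and non-astrocytes differed by unequal amounts in dorsal and ventral cord. The dorsal difference exceeded the ventral one in 6 of them, by 2.06 log2 units in Hs3st3a1, 1.56 in Slc30a10, 1.39 in Cyp4f15, 1.24 in Dbndd2, 1.20 in Unc13c and 0.93 in Slc14a1. It lay below the ventral one in 8, with -3.60 in Fads2b, -2.23 in Sema3a, -1.94 in Epha5, -1.58 in Nmnat2, -1.33 in Gpr158, -1.24 in Scrg1, -0.96 in Nell2 and -0.96 in Dmd. None of the 14 kept its call in every alternative in which it was tested, 21 or 22 for each gene, and all kept their direction.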

How the results depend on the processing

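The number of probe sets called in the dorsal comparison, 6768, was 5877 to 7345 under the other settings with all 6 arrays. These settings did not all test the same number of probe sets. The lowest count, 5877, came from testing only the probe sets above the median signal. Median centring turned the larger side, with 3492 higher and 3144 lower. The count was 4996 to 6363 without 1 array (2454 to 2930 higher and 2527 to 3440 lower). Leaving out both arrays of a number gave 4079 to 4720 calls, 2161 to 2228 of them higher and 1918 to 2508 lower, in fits with 2 arrays a group. Of the 156 genes named here by rule, 152 were called in the dorsal comparison. Of these, 138 kept their call in every alternative in which they were tested, 17 or 18 for each gene. Most of these genes were picked for a large change, so this share does not describe all called genes. The median of 1 list, ephrin, slit, netrin and draxin genes, turned from -0.53 to 0.36 when only probe sets above the median signal were used. The 18 interaction calls fell to 3 (2 positive, 1 negative) when control-type probe sets were tested too. That setting adds tests and also changes the spread that limma borrows across probe sets. Among only the probe sets above the median signal 14 interaction calls were made, 5 of them positive. Without 1 array they ranged from 2 to 14 (1 to 8 positive, 1 to 9 negative), and without the arrays of a number from 1 to 5 (0 to 2 positive, 1 to 3 negative). The labels do not say what a shared replicate number marks, and column names in the authors' table carry a common number across sorts and regions, also without saying what it marks. With the replicate block 6329 probe sets were called in the dorsal comparison and 12 in the interaction, and the correlations of the check were 0.0503, 0.0394 and 0.096 for replicates 1, 2 and 3.

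With 3 arrays a group the spread is estimated from few degrees of freedom, and limma borrows it across probe sets. Quantile normalization over all arrays assumes equal distributions, so a difference is relative to the other probe sets. Dim probe sets have compressed differences. Named genes were selected by the authors on these arrays, so the shares of list members called say little beyond the genes themselves.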
